A study of Mus musculus with 9 samples.

Results

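The cytosolic ribosomal protein genes were examined in whole hearts of newborn mice. They were taken by symbol and biotype: protein-coding rows named Rpl or Rps with a number and an optional a, x or l ending, plus Rplp0, Rplp1, Rplp2 and Rpsa. This rule used no measured value and gave 81 genes of 56748 in the deposited table, 50 of the large (60S) subunit and 31 of the small (40S) subunit. Rps3a1, Fau and Rack1, which also encode cytosolic ribosomal proteins, have other symbols and lie outside the rule.

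RNA sequencing was done on 9 libraries of hearts from pups at postnatal day 1, with 3 libraries in each of 3 genotypes. These were wild type (WT), a knockout of Cd36 throughout the body (CD36KO) and a knockout specific to the heart (CD36CKO). The product of Cd36 is a surface receptor through which cells import long-chain fatty acids. The sources used here give no Cre line, strain, litter or sex. They do not say that replicates came from separate animals, so p-values speak for the spread among these libraries alone, and that may be technical, at least in part. The Y-linked gene Ddx3y was at 9.72 FPKM in CD36KO replicate 3 and 6.19 in CD36CKO replicate 3. It was at most 0.08 in every other library and 0 in all of WT. These 2 libraries were therefore not technical repeats of the others in their groups.

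Ribosomal proteins and ribosomal RNAs form the particle that makes every cytosolic protein, and nearly all of the proteins are needed in a single copy per ribosome. In vertebrates their mRNAs share a terminal oligopyrimidine (TOP) motif, a start made of a C followed by an unbroken run of C and T, through which mTORC1 and the RNA-binding protein Larp1 control their translation. A few have paralogs with restricted expression. Rpl3l replaces Rpl3 in part of the ribosomes of heart and skeletal muscle, and Rpl10l and Rpl39l are best known from the testis.

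To look at annotated starts beside this motif, 30 bases around a start are printed for 8 members that are described below. The 8 were chosen with their sequences and values seen, and where a gene had several starts the one with the longest run was taken, so they do not stand for all members. They come from the RefSeq promoter table (GRCm38.p6), with 15 bases before the start and 15 from it, 5′ to 3′ on the gene's strand. Capitals mark the unbroken run of C and T that covers the first transcribed base, the 16th of each line. The first 6 genes fell in libraries labelled CD36CKO, Rpl7a and Rpl3l did not pass the test, and Rpl3l has no such run.
Rps27, chr3:90213634-90213663, minus strand: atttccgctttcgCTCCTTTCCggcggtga
Rps21, chr2:180257364-180257393, plus strand: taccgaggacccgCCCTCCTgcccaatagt
Rpl38, chr11:114668565-114668594, plus strand: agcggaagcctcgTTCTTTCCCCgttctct
Rpl35, chr2:39005117-39005146, minus strand: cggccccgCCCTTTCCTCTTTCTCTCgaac
Rpl39, chrX:37085208-37085237, minus strand: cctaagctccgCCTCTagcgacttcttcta
Rpl35a, chr16:33056467-33056496, plus strand: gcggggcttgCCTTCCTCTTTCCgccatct
Rpl7a, chr2:26910792-26910821, plus strand: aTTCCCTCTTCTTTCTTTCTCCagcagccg
Rpl3l, chr17:24727811-24727840, plus strand: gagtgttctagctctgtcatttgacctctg

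The run was 18 bases long in Rpl35, 21 in Rpl7a and 5 in Rpl39. It was counted on both sides of the start, with C or T as the first transcribed base, so it is looser than the TOP motif. In Rpl39 the run ended at the first transcribed base, and in Rpl7a that base was T. The table matched 61 of the 81 members, with 73 annotated starts. A run of at least 5 C or T covered 20 of these 73 starts (27.4%) and 10.1% of all 32851 starts in the table, so most annotated member starts showed none. A run of at least 8 was found at 23.3% and 3.86%. Within the 300-base window, from 250 bases before the start to 50 after it, CTTTCC was present on either strand at 50.7% of member starts and 26.6% of all starts. It lay on the gene's strand at 39.7% of member starts against 14.1% of all, and on the opposite strand at 19.2% against 14.4%. ACTTCCGG, the core bound by ETS factors, was present on either strand at 16.4% of member starts and 3.89% of all. GCCATCTT, the core bound by YY1, was present at 9.59% and 2.75%. A match of letters is a description only, and annotated starts can lie some bases from the start used.

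The recovered reads numbered 14408631 to 20725356 per library. Whole-gene Cd36 was 146 ± 19.4 FPKM in WT and 65.7 ± 6.05 in CD36KO (SD, n = 3 each), but 183 ± 18.8 in the libraries labelled CD36CKO. Those libraries therefore did not show less Cd36 RNA than WT, and their group is named by its label in all that follows. Transcripts of the mitochondrial genome took 4.55% to 8.89% of reads in the WT libraries, 11.1% to 14.3% in CD36KO and 10.3% to 12.2% in libraries labelled CD36CKO. Of 11 atrial markers, 9 fell in CD36KO and 4 in libraries labelled CD36CKO, with summed levels of 4404 to 7110 FPKM in the WT libraries, 260.5 to 1507 in CD36KO and 770 to 2287 in libraries labelled CD36CKO. All 11 were detected in each group. The G2/M list was lower too: 11 of 20 genes fell in CD36KO and 20 of 20 in libraries labelled CD36CKO. Of all tested genes, 6.7% and 7.32% fell in these comparisons. The part of these shifts in the ribosomal protein values was not tested.

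Ribosomal protein mRNAs were among the most abundant in the neonatal heart. In WT their share of all recovered reads was 4.46%, 5.62% and 3.89% in replicates 1, 2 and 3. In CD36KO it was 3.69%, 3.72% and 3.40%, and in libraries labelled CD36CKO it was 3.51%, 3.16% and 3.49%. The 3 WT libraries lay above all 6 knockout libraries in this share. They did not in summed FPKM, where WT 3 held 21311 and CD36KO 1 held 21799. Over reads from nuclear genes alone, the share was 4.97% ± 0.830 in WT, 4.11% ± 0.126 in CD36KO and 3.803% ± 0.248 in libraries labelled CD36CKO (SD, n = 3 each), and the lowest WT library, at 4.27%, was close to the highest CD36KO library, at 4.19%. In whole-heart RNA, fewer cells of a type and less RNA per cell cannot be told apart.

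Of the 81 members, 77 had a mean of at least 1 FPKM over the 9 libraries and were tested. The other 4 were Rps10 at 0.93 FPKM, Rpl36al at 0.34, Rpl39l at 0.19 and Rpl10l, which was listed at 0 in every library. Among the tested members the median of the mean levels was 207 FPKM, and the 10 highest members held 39.0% of the summed FPKM. The highest was Rplp1 at 2175 FPKM, followed by Rpl36 at 1045 and Rplp0 at 1034. Rplp0 and Rplp1 belong, with Rplp2, itself the median member, to the stalk that recruits elongation factors to the large subunit. The lowest tested were Rpl3l at 5.14 FPKM, Rpl13a at 10.8 and Rpl24 at 12.9. The deposited gene lengths were 1.00 to 7.40 times the principal transcript (median 2.02), so FPKM understates some members more than others, and the order between genes is approximate.

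The members moved as a block between libraries. WT 2 had the highest level of all 9 libraries for 71 of the 77 tested members, and WT 2, WT 1 and WT 3 came in that order for 72. The median ratio of WT 2 to WT 3 was 1.61. The lowest library was CD36CKO 2 for 59 members. On the log2(FPKM + 1) scale the median SD of a member was 0.35 within WT, 0.09 within CD36KO and 0.14 within libraries labelled CD36CKO, against 0.21, 0.11 and 0.14 for all tested genes. Taken relative to the median member of the same library, the median SD was 0.09 within WT, 0.15 within CD36KO and 0.07 within libraries labelled CD36CKO, so most of the spread within WT was common to the members.

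**Figure D1:**
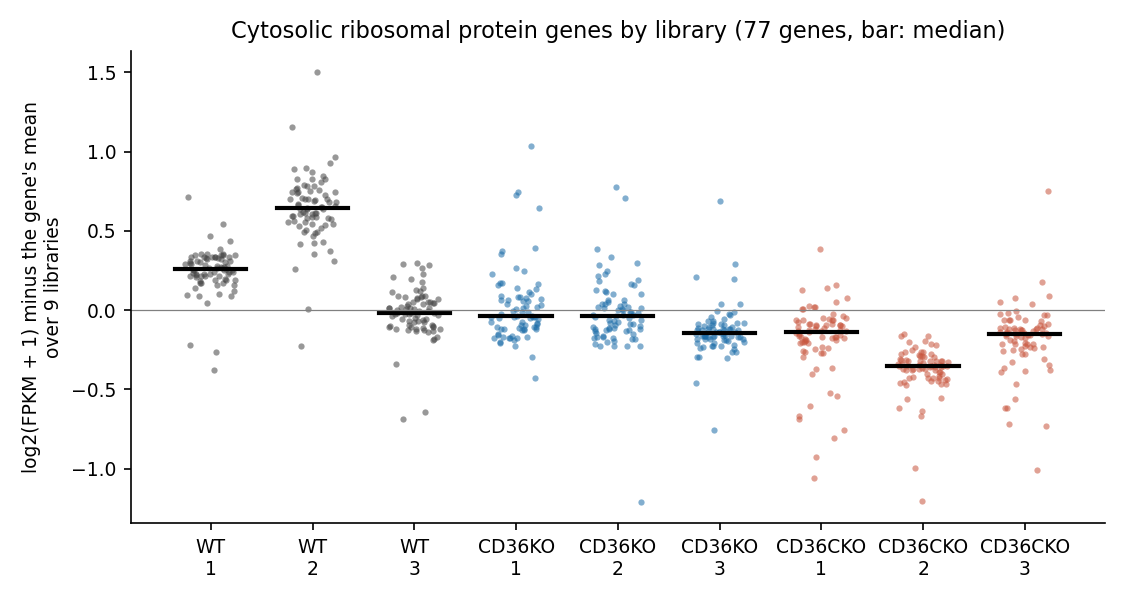
Each point is 1 of the 77 tested ribosomal protein genes: its log2(FPKM + 1) in a library minus its own mean over the 9 libraries (vertical axis), by library (horizontal axis); bars are medians. WT 2 stands above the other libraries, CD36CKO 2 below them, and WT 3 lies near the CD36KO libraries.

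Pearson's r of each member with the mean of the other members over the 9 libraries had a median of 0.95 and exceeded 0.9 for 54 of 77. It was below 0.5 for Rpl7a (-0.17), Rpl3l (0.03) and Rps29 (0.47). These are descriptions over 9 points that share a library each. Outside the rule, the 5 protein-coding genes most like the members over the 9 libraries were Fau (r = 0.990), which encodes a ubiquitin-like protein fused to the small-subunit protein eS30, Prpf31 (0.988), a splicing factor, the proteasome subunits Psmb6 (0.987) and Psmb4 (0.984), and Cav3 (0.983), the caveolin of muscle.

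The comparison of CD36KO with WT asked how the members differ when Cd36 is lost in the whole body. Of 77 tested members 73 were lower in CD36KO and 4 higher, against 51.5% and 48.5% of all tested genes. The median difference was -0.37 on the log2(FPKM + 1) scale, against -0.01 for all tested genes. Leaving out WT 2 brought it to -0.19, removing haemoglobin and mitochondrial genes to -0.22, and quantile normalization to -0.17. The median was -0.37 for the large subunit and -0.35 for the small one. Past the adjusted threshold of 0.05 (limma, Benjamini-Hochberg over all 12206 tested genes), 1 of 77 fell and 0 rose, against 6.7% and 5.81% of all tested genes. At an unadjusted p under 0.05, 31 were lower and 1 higher, against 16.4% and 14.3% of all tested genes, and limma voom on the recovered reads called 9 lower and 0 higher. All 3 CD36KO libraries were below all 3 WT libraries for 30 members, and above them for 2, against 17.8% and 17.4% of all tested genes.

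The member that fell was Rpl24, a large-subunit protein that joins the particle late, in the cytoplasm, and whose mutation causes the Belly spot and tail phenotype in mice. It measured 20.1, 24.0 and 13.6 FPKM in WT, 12.1, 4.55 and 10.6 in CD36KO and 10.6, 8.86 and 11.6 in libraries labelled CD36CKO. No knockout library reached the lowest WT library. Its row held only 73 to 443 reads per library. For tested members the median count in the lowest library was 5982 reads. The difference from WT was -1.07 (SE 0.31, adjusted p = 0.0493) in CD36KO and -0.81 (adjusted p = 0.105) in libraries labelled CD36CKO. The CD36KO call was lost in 15 of 21 alternative settings, with adjusted p up to 0.137. Leaving out WT 3 raised the count of members lower in CD36KO from 1 to 47, and leaving out any other library gave 0.

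**Figure D2:**
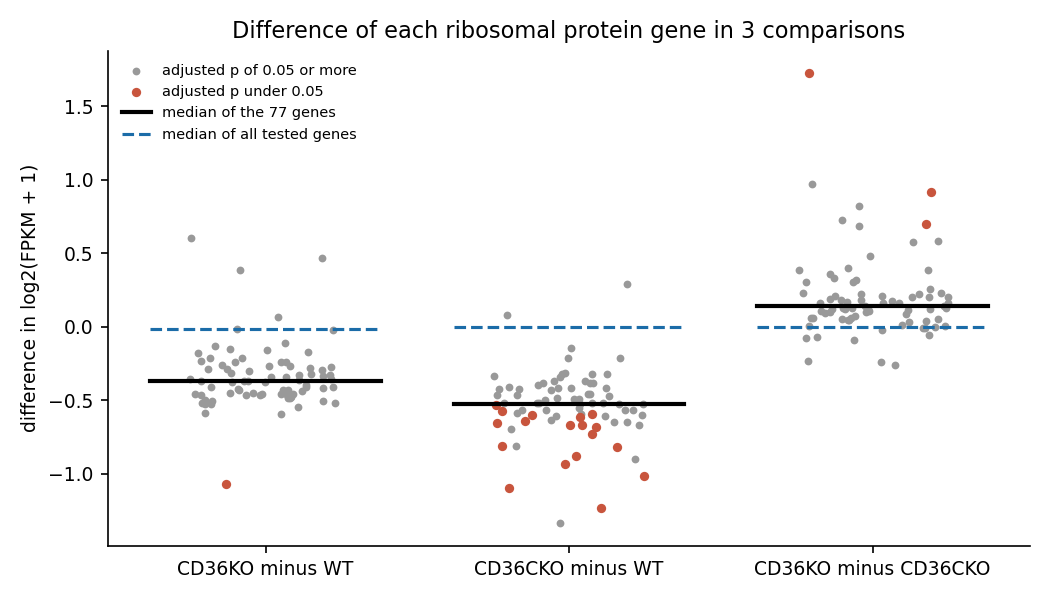
Each point is the difference of 1 of the 77 ribosomal protein genes in log2(FPKM + 1) (vertical axis) in each of 3 comparisons; red points passed an adjusted p of 0.05, black bars are the members' medians (-0.37, -0.52 and 0.14), and dashed lines are the medians of all tested genes. The first 2 comparisons share the WT libraries.

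Between libraries labelled CD36CKO and WT, 75 of 77 members were lower and 2 higher, against 50.1% and 49.9% of all tested genes. The median was -0.52, against 0.00 for all tested genes. This comparison and the one above share the WT libraries. Past the adjusted threshold (limma), 18 members fell and 0 rose, against 7.32% and 5.36% of all tested genes. At an unadjusted p under 0.05, 57 members were lower and 0 higher, against 17.2% and 15.3% of all tested genes, and voom called 27 lower and 0 higher. The libraries of the groups did not overlap for 55 members, all lower, against 17% of all tested genes lower in this way. The fall was found in both subunits: 10 of 47 large-subunit and 8 of 30 small-subunit members, with medians of -0.52 and -0.57. Their differences ran from -1.23 to -0.53.

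The smallest adjusted p was that of Rps12, a small-subunit protein. Its values were 105, 127 and 108 FPKM in WT, 88.9, 109 and 102 in CD36KO, and 60.3, 55.4 and 68.5 in libraries labelled CD36CKO. The last group lay below every other library. The difference from WT was -0.88 (SE 0.14, adjusted p = 0.00582). Rps21, another small-subunit protein, was next, with 284, 357 and 228 FPKM in WT, 256, 227 and 168 in CD36KO and 111, 124 and 127 in libraries labelled CD36CKO. Again the last group did not overlap with the others. Its difference was -1.23 (SE 0.20, adjusted p = 0.00735). Rps12 and Rps21 kept their calls in all 21 alternative settings, with adjusted p up to 0.0418 and 0.0352.

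Rpl41, a very short basic peptide of the large subunit, measured 859, 1182 and 673 FPKM in WT and 408, 405 and 422 in libraries labelled CD36CKO, a difference of -1.10 (SE 0.21, adjusted p = 0.0125). The CD36KO libraries lay between, at 683, 721 and 588 FPKM. Of the zinc-binding proteins, Rps27 fell by 0.93 (adjusted p = 0.0224), Rpl37 by 0.73 (0.0203) and Rpl37a by 0.81 (0.0311). At the exit of the peptide tunnel, Rpl35 fell by 0.82 (0.0222) and Rpl39 by 0.66 (0.0269). Rpl38, the gene mutated in the Tail-short mouse, fell by 1.01 (0.0335), and Rpl10a, a protein of the L1 stalk, by 0.59 (0.0387). Rps19 and Rpl35a, both mutated in human Diamond-Blackfan anaemia, fell by 0.68 (0.0330) and 0.53 (0.0396). Rps3, which lines the channel where mRNA enters, fell by 0.57 (0.0403), Rpl9 by 0.66 (0.0246) and Rpl30 by 0.61 (0.0311). The remaining 3 of the 18 were Rps16, Rps4x and Rps15a.

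The count of 18 depended on the libraries. It was 67 without WT 3, 3 without WT 1 or WT 2, 3, 2 and 4 without CD36CKO 1, 2 or 3, and 10 and 11 without CD36KO 2 or 3, which enter only through the shared estimate of the spread. The median kept its sign in each of these fits, from -0.70 without WT 3 to -0.34 without WT 2.

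The direct comparison of both knockouts does not use the WT libraries for its difference. Of 77 members 66 were higher in CD36KO than in libraries labelled CD36CKO and 11 lower, against 50.1% and 49.9% of all tested genes. The median was 0.14, against 0.00 for all tested genes, and its direction turned with quantile normalization (-0.015) and with each library centred within transcript length classes (-0.032). Past the adjusted threshold 3 were higher and 0 lower (limma), against 2.61% and 1.93% of all tested genes. At an unadjusted p under 0.05, 12 were higher and 0 lower, against 11.2% and 10.7% of all tested genes, and voom called 4 higher and 0 lower. The libraries did not overlap for 27 members that were higher in CD36KO and for 1 that was lower, against 19.4% and 17.3% of all tested genes. The 3 called members, all of the small subunit, were 3.90% of the 77, a share near that of all tested genes.

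Rps12 was 0.70 higher (SE 0.14, adjusted p = 0.0231), with the values given above. Rps27 measured 192, 230 and 172 FPKM in WT, 185, 258 and 153 in CD36KO, and 93.0, 121 and 95.6 in libraries labelled CD36CKO. Its CD36KO libraries lay in and around the WT range, above all libraries labelled CD36CKO. The difference between the knockouts was 0.91 (SE 0.21, adjusted p = 0.0396). Rps27a, made as a fusion with ubiquitin, measured 108, 289 and 64.5 FPKM in WT, 159, 175 and 164 in CD36KO and between 48.3 and 50.4 in all 3 libraries labelled CD36CKO. Both knockouts were tight, and WT spanned most of the range. Its difference was 1.72 (SE 0.42, adjusted p = 0.0491).

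Rps21 just missed the threshold, at 0.82 (adjusted p = 0.0506), and was called in 10 of 21 alternative settings. Rps29 was 0.97 higher without a call (adjusted p = 0.0939), since CD36KO held 384, 223 and 158 FPKM against 98.3, 161 and 113. The count of 3 was 5 without WT 2, 6 without WT 3, 1 without WT 1, CD36KO 1 or CD36CKO 3, and 0 without CD36KO 2, CD36KO 3, CD36CKO 1 or CD36CKO 2.

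**Figure D3:**
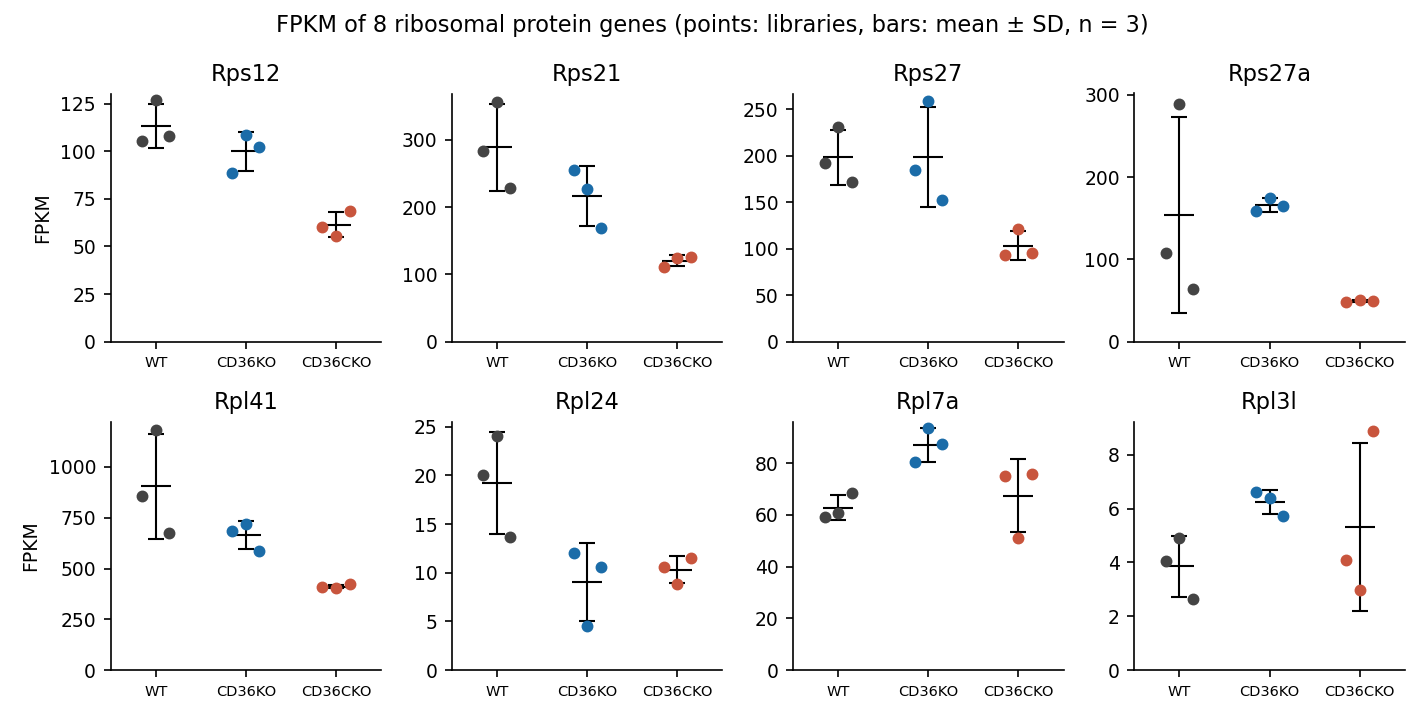
FPKM (vertical axes, from 0) of 8 ribosomal protein genes in the 3 genotypes; points are libraries in the order of replicates 1 to 3, bars are means ± SD (n = 3). Rps12, Rps21, Rps27, Rps27a and Rpl41 are lower in all 3 libraries labelled CD36CKO than in CD36KO; Rpl7a is highest in CD36KO.

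A few members departed from the block. Relative to the median member of the same library, the range of the 3 genotype means was widest for Rps27a (1.51), Rpl3l (0.93), Rpl7a (0.79) and Rps29 (0.76), and narrowest for Rpl34 (0.01) and Rplp2 (0.03). Rpl7a, a large-subunit protein with the longest pyrimidine run of the 8 genes printed above, had 59.1, 60.9 and 68.4 FPKM in WT, 80.4, 93.7 and 87.4 in CD36KO and 75.1, 51.2 and 76.0 in libraries labelled CD36CKO. Its CD36KO libraries were above all others. The difference of 0.47 from WT did not pass the threshold (SE 0.16, adjusted p = 0.0875). Rpl7a has 14 pseudogene rows that summed to 34.9 to 59.5 FPKM. In settings added after seeing the data, the limma difference was 0.15 with the FPKM of these rows added to the gene (adjusted p = 0.503). It was 0.62 with length classes centred (adjusted p = 0.0423). Adding FPKM is not the same as pooling reads, since each row is divided by its own length.

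Rpl3l, the paralog of striated muscle, had 4.04, 4.90 and 2.65 FPKM in WT, 6.60, 6.40 and 5.73 in CD36KO and 4.08, 2.98 and 8.88 in libraries labelled CD36CKO. All CD36KO libraries lay above WT, by 0.60 without a call (adjusted p = 0.202), while libraries labelled CD36CKO spanned both. Rpl3, by contrast, was at 277, 342 and 236 FPKM in WT, 220, 237 and 230 in CD36KO and 209, 190 and 199 in libraries labelled CD36CKO. Rpl3l was 1.13% to 1.46% of the Rpl3 level in the WT libraries, 2.49% to 3.002% in CD36KO, and 1.95%, 1.57% and 4.46% in libraries labelled CD36CKO 1 to 3. The summed skeletal muscle markers ran from 392 to 3984 FPKM in libraries labelled CD36CKO, against 497 to 840 in WT and 425 to 450 in CD36KO, and their part in the Rpl3l value of CD36CKO 3 was not tested. Rps27l, the paralog of Rps27, was at 114, 156 and 81.1 FPKM in WT, 112, 118 and 106 in CD36KO and 98.7, 74.9 and 87.7 in libraries labelled CD36CKO, with no call in any comparison.

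Among protein-coding genes, transcript length moved with the differences in the comparisons that include libraries labelled CD36CKO. Ribosomal protein transcripts are short, with a median principal transcript of 791 bases and 52 of 77 of at most 1000. Among other protein-coding genes, the median difference between libraries labelled CD36CKO and WT was -0.42 for the 72 genes of at most 500 bases, -0.34 between 600 and 800, -0.20 between 1000 and 1500 and 0.12 over 3000. The members were lower than other genes of their length in each of 7 classes, for example -0.62 for 14 members of at most 500 bases and -0.42 for 15 between 1000 and 1500. The gap was widest in the longest classes, at -0.45 between 1500 and 3000 bases and -0.74 over 3000. These lengths are of annotated principal transcripts, such as 5179 bases for Rps15a and 3706 for Rps20. The transcripts present in these hearts may be shorter, which was not tested and also limits the setting with length classes centred. In CD36KO against WT, the medians of the other genes ran from -0.15 to 0.08, and those of the members from -0.45 to -0.28. The other genes were not in order of length there, at -0.08 for at most 500 bases, -0.15 between 800 and 1000 and 0.08 over 3000.

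For CD36KO against libraries labelled CD36CKO, the medians of members and of other genes were both above 0 in each class up to 1500 bases. They were 0.35 for members and 0.38 for other genes of at most 500 bases, and 0.11 and 0.23 between 500 and 600. Between 600 and 800 bases they were 0.12 and 0.23, and between 1000 and 1500 0.06 and 0.08. In longer classes they were 0.10 and 0.004 between 1500 and 3000, and 0.17 and -0.04 over 3000. All 14 tested members with transcripts of at most 500 bases were higher in CD36KO. Across the 77 members Pearson's r of log2 length with the difference was -0.09 for CD36KO minus WT, 0.34 for CD36CKO minus WT and -0.35 for CD36KO minus CD36CKO, as a description over genes, which are not replicates. With each library centred within length classes, a setting added after seeing the data, the medians were -0.26, -0.21 and -0.03. The members called lower were then 19 in CD36KO and 15 in libraries labelled CD36CKO, and between the knockouts Rps27a remained and Rps12 (adjusted p = 0.0569) and Rps27 (0.103) did not. What sets the relation with length was not tested.

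**Figure D4:**
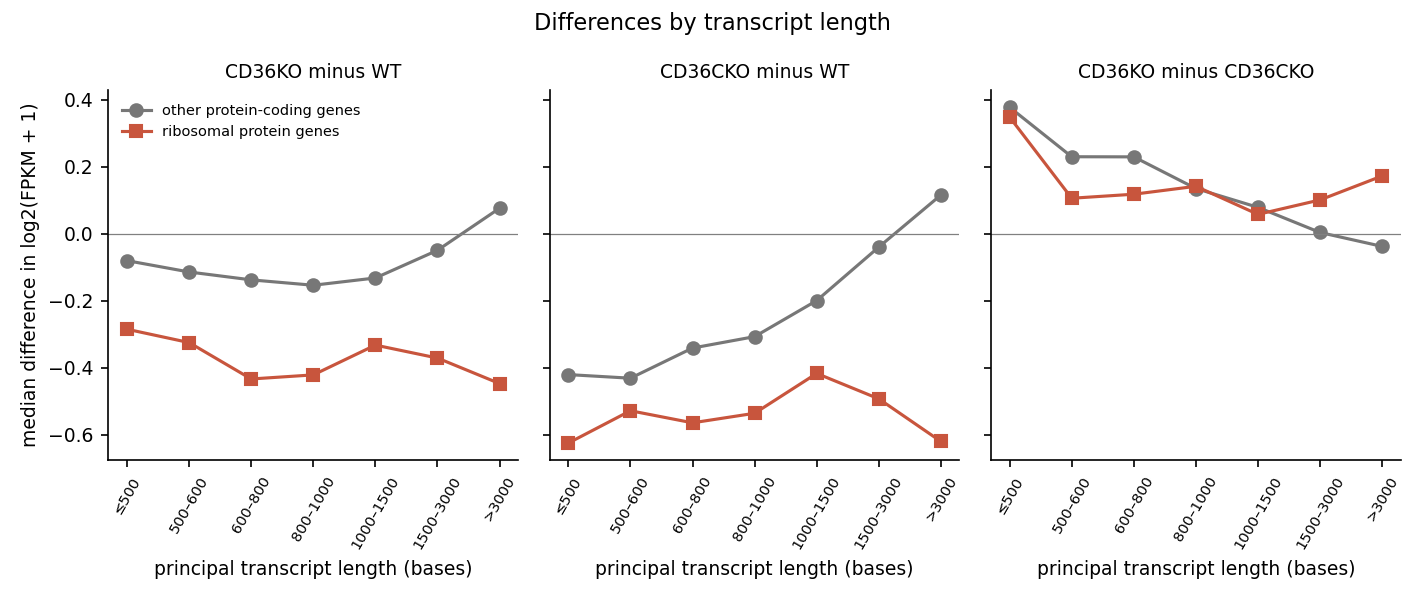
Median difference in log2(FPKM + 1) (vertical axis) by class of principal transcript length in bases (horizontal axis) for ribosomal protein genes (squares) and other tested protein-coding genes (circles), in 3 comparisons. The members lie below the other genes in each length class in both comparisons with WT. Between the knockouts they lie below them in some classes and above them in others. The class over 3000 bases holds 2 members.

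Processed copies limit what a row of a member holds. The table lists 322 pseudogene rows named after ribosomal proteins, 80 of them tested, and 62 members have at least 1. These rows were found by symbols ending in -ps with an optional number, so copies under other symbols were not counted. Members without such rows, Rpl24 among them, may still share reads with other copies, which was not tested. In FPKM over the deposited gene lengths, the 5 members below the summed level of their pseudogenes were Rps10, Rpl17, Rps12, Rpl21 and Rpl9. With the gene row scaled to the principal transcript, Rpl9 was at 484 FPKM, above its pseudogenes at 132. Rps12 was then at 318 FPKM against 350. For Rps10 the gene row was at 0.754 to 1.14 FPKM while its 4 pseudogene rows summed to 174 to 429. For Rps12, 24 pseudogene rows summed to 453, 591 and 352 FPKM in WT, 322, 256 and 334 in CD36KO and 297, 217 and 328 in libraries labelled CD36CKO. For Rps27a, 3 rows summed to 101, 83.3 and 72.6 in WT, 53.1, 25.1 and 41.4 in CD36KO and 104, 59.6 and 87.0 in libraries labelled CD36CKO.

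The Rps27a pseudogene rows were thus lowest where the gene itself was steady and high. In a setting added after seeing the data, the FPKM of the pseudogenes was added to that of their genes. The difference between the knockouts was then 0.25 for Rps12 (limma, adjusted p = 0.501) and 0.64 for Rps27a (adjusted p = 0.249). The fall of Rps12 against WT remained past the threshold, at -0.75 (adjusted p = 0.0418). FPKM values were added here, not reads, each over its own deposited gene length. That length was 2027 bases for Rps12 and 1972 for Rps27a, against principal transcripts of 584 and 791. Reads of the gene rows thus counted for less than over the principal transcript, and the lost calls do not show what pooled reads would give. The sources used here do not say how reads were shared between near-identical copies, so these rows are uncertain. A further 14 members overlap a tested gene on the opposite strand, among them Rpl35, which overlaps Arpc5l.

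Other genes of ribosome production were counted in the same way. Of all tested genes, 6.7% fell and 5.81% rose in CD36KO, and 7.32% fell and 5.36% rose in libraries labelled CD36CKO. Fau, outside the rule, fell in libraries labelled CD36CKO, from 575 to 342 FPKM on average (-0.71, adjusted p = 0.0489). The 20 other genes whose mRNAs carry the TOP motif had medians of -0.11, -0.11 and 0.05. None of them changed in CD36KO, with 2 at an unadjusted p under 0.05, and 2 rose in libraries labelled CD36CKO: Pabpc1, the poly(A)-binding protein (0.52, adjusted p = 0.0267), and Eif4a2, an initiation helicase (0.65, adjusted p = 0.0499). Of 6 noncoding host genes with the TOP motif, Snhg5 (-0.59), Snhg6 (-0.42) and Snhg12 (-0.62) fell in CD36KO, and Snhg5 (-0.54) in libraries labelled CD36CKO.

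Of 49 tested ribosome biogenesis factors, 4 fell in CD36KO and 3 in libraries labelled CD36CKO, with 0 rising in either, a share near the 6.7% and 7.32% of all tested genes that fell. Rrp12, which helps to export the pre-40S particle, fell in both (-0.61 in each). Eif6, which keeps the large subunit from joining the small one too early, fell by 0.79 in libraries labelled CD36CKO, and Nob1, the nuclease that finishes 18S rRNA, fell by 0.38 in CD36KO and was also lower there than in libraries labelled CD36CKO (-0.41). Of 16 tested genes of RNA polymerase I and rRNA transcription, Polr1c fell in CD36KO (-0.37) and Ttf1 rose in libraries labelled CD36CKO (0.47). In CD36KO 14 of the 16 were lower, against 51.5% of all tested genes, with a median of -0.30. At an unadjusted limma p under 0.05, 6 of the 16 differed, against 16.4% lower and 14.3% higher of all tested genes. In libraries labelled CD36CKO 9 were lower, against 50.1% of all tested genes, with a median of -0.11. Of 33 other translation factors, Eif4g2 rose in both (0.42 and 0.38) and Eif2b2 fell in both (-0.50 and -0.56). Eif3g fell in CD36KO, and Eif3d and Eif4h fell in libraries labelled CD36CKO. So 1 of the 33 rose in each comparison with WT, while 2 fell in CD36KO and 3 in libraries labelled CD36CKO. The counts of calls in both lists were near the shares of all tested genes. By median, the biogenesis factors lay at -0.14 in CD36KO and -0.13 in libraries labelled CD36CKO, and the other translation factors at -0.04 and -0.06.

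Of 23 tested mTORC1 and Myc regulators, Mycn rose in both (0.81 and 0.73). In CD36KO, Ddit4, an inhibitor of mTORC1, fell by 0.97 and Rps6kb2, an S6 kinase, by 0.66, and in libraries labelled CD36CKO Eif4ebp1 fell by 0.50. Ddit4 was also lower in CD36KO than in libraries labelled CD36CKO (-1.15). Of the 23, 1 rose and 2 fell in CD36KO, and 1 rose and 1 fell in libraries labelled CD36CKO. These counts were near the shares of all tested genes. Of 17 chaperones and surveillance factors, Zfp622, which acts in large-subunit maturation, fell by 0.56 in libraries labelled CD36CKO. All of these calls are limma's, with Benjamini-Hochberg adjusted p under the threshold of 0.05.

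Other cell types were checked by their markers. The 6 tested erythroid genes had 0 calls in any comparison (limma), and at an unadjusted p under 0.05 all 6 differed in CD36KO against WT, 1 in libraries labelled CD36CKO against WT and 1 between the knockouts. Their summed level was 5935 to 9212 FPKM in the WT libraries, 3179 to 5103 in CD36KO and 4331 to 5510 in libraries labelled CD36CKO. Cardiomyocyte markers were detected throughout, at 17419 to 30162 FPKM in sum. The summed endothelial markers were 404 to 451 FPKM in the WT libraries, 421 to 473 in CD36KO and 340 to 371 in libraries labelled CD36CKO. Fibroblast markers summed to 494 to 646 FPKM in the WT libraries, 481 to 539 in CD36KO and 335 to 618 in libraries labelled CD36CKO. Macrophage markers summed to 73.9 to 126, 85.4 to 95.3 and 66.8 to 81.3 FPKM, in the same order. The 10 lymphoid genes summed to 1.15 to 1.87 FPKM in the WT libraries, 5.03 to 7.97 in CD36KO and 1.17 to 2.95 in libraries labelled CD36CKO. The 1 tested, Ighm, an immunoglobulin heavy chain, rose in CD36KO against WT (1.33, adjusted p = 0.00661, limma) and was higher there than in libraries labelled CD36CKO (1.13, adjusted p = 0.0178). The part of these cell type markers in the ribosomal protein values was not tested.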

How the data were processed

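Poly-A RNA of whole hearts was made into directional libraries, per the labels' protocols. The authors deposited FPKM values per gene with positions and gene length, per the file headers. The tools named, with no version or role, were TopHat2, HISAT, HISAT2 and CASAVA, per the submitters' processing notes. The sources used here do not give the counter, genome build or treatment of multi-mapping reads. FPKM times gene length gave whole reads for 100% of values within 0.05 reads. A count of 0 allows 3 reads, or 0.128 to 0.192 FPKM for 1 kb, for counting error only.

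From these values, log2(FPKM + 1) was tested with limma 3.58.1 in R 4.3.3, with a trend on mean expression, for 12206 genes with a mean of at least 1 FPKM. All 9 libraries entered one fit with a mean per genotype (6 residual and 3.68 prior degrees of freedom). Tests were two-sided, with Benjamini-Hochberg adjustment over all tested genes and a threshold of 0.05. Fold changes on this scale understate low genes. The fit was tested on simulated data in which each gene varied on its own. The movement between libraries that the members share was not simulated.

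The members and lists were chosen with earlier results of these data known. Named were, in each comparison, up to 15 called members by p, the 3 highest and 3 lowest, paralogs, stalk proteins, the 4 most and 2 least variable relative to the library's median member, the top 2 called genes of each list (markers of cell types, the mitochondrial genome and the cell cycle are given as counts or sums) and the 5 genes most like the members. The list of ribosomal protein genes outside the rule is not reported here as a list. Other members were named after their values were seen, as were further genes of the lists. Transcript lengths came from GENCODE M21 by gene identifier, which covered all 81 members, and promoter sequences from RefSeq. Alternatives covered the pseudocount, low-value filter, scaling, voom, library weights, pairing and left-out libraries.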

Additional observations from a re-analysis of the deposited data

Results flagged for a closer look

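A few differences between the 2 knockouts, both set against the same WT libraries, passed the test of the difference itself. They were 3 of the 77 tested members (3.90%), a share near the 2.61% of all tested genes called higher. In CD36KO minus CD36CKO, Rps12 was at 0.70, Rps27 at 0.91 and Rps27a at 1.72 on the log2(FPKM + 1) scale. Against WT, Rps12 was at -0.18 in CD36KO and -0.88 in libraries labelled CD36CKO. Rps27 was at -0.02 and -0.93, and Rps27a at 0.39 and -1.33. The Rps12 call held in 13 of 21 alternative settings, the Rps27 call in 9 and the Rps27a call in 10, and none reversed. With the FPKM of pseudogenes added to their genes, which is not a pooling of reads, Rps12 was at 0.25 (limma, adjusted p = 0.501) and Rps27a at 0.64 (adjusted p = 0.249). With length classes centred, Rps12 was at 0.51 (adjusted p = 0.0569) and Rps27 at 0.55 (adjusted p = 0.103). Both settings were added after seeing the data. No explanation was tested.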

How the results depend on the processing

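Over 21 alternative settings (9 of them leaving out a library), none of 23 named results reversed. The count of members lower in CD36KO (1) became 0 with a pseudocount of 0.1, with no filter, with only the 2 groups compared and without CD36KO 3 and CD36CKO 3, which express a Y-linked gene, 2 with a mean of at least 5 FPKM, 6 with mitochondrial and haemoglobin genes removed, 4 with quantile normalization, 9 with voom, 53 with library weights and 19 with length classes centred. It was 0 to 47 with a library left out. Members higher in CD36KO (0) became 3 with library weights, 1 with length classes centred and 0 to 1 with a library left out. The count lower in libraries labelled CD36CKO (18) became 3 with no filter, 8 with quantile normalization, 68 with library weights, 6 with only the 2 groups compared and 2 without those 2 libraries, and was 2 to 67 with a library left out. Between the knockouts, members higher (3) became 0 with no filter, 6 with library weights, 6 with only the 2 groups compared, 0 without those 2 libraries and 1 with length classes centred, and were 0 to 6 with a library left out. Members lower (0) became 1 with quantile normalization and with length classes centred. The causes were not tested.

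The median for CD36CKO minus WT (-0.52) became -0.25 with mitochondrial and haemoglobin genes removed, -0.17 with quantile normalization and -0.21 with length classes centred. Removing those genes moved the median of all tested genes to 0.10, 0.22 and -0.11 in the 3 comparisons, and the members then lay -0.32, -0.47 and 0.12 from it. The median between the knockouts (0.14) became -0.015 with quantile normalization and -0.032 with length classes centred. The library weights, 7.78, 0.435 and 0.176 for WT 1 to 3, came from limma's gene-by-gene estimator, since the default did not converge.

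Same-numbered libraries of different genotypes correlated at -0.43 to 0.14 in their deviations, and differently numbered ones at -0.29 to 0.35. With 3 libraries in each genotype, this cannot tell whether the numbers pair the samples. With the replicate block, 0 members were lower in CD36KO, 10 in libraries labelled CD36CKO, and 2 were higher in CD36KO between the knockouts. Depth limited 2 of the tested members, Rpl24 and Rpl3l, which had under 100 reads in some library.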
